A study of Mus musculus with 6 samples.

Results

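Acid is secreted by the gastric parietal cell across an apical membrane that is folded into canaliculi and resupplied from internal tubulovesicles. Both compartments are tied to actin by linker proteins, and 9 of their genes are described here, of 23284 genes in the deposited table. The members were set by gene name, with earlier results of these data known. Ezr, Rdx and Msn encode ezrin, radixin and moesin (the ERM proteins), which hold membrane proteins with one end and actin filaments with the other. Hip1r and Hip1 encode paired adaptors between clathrin coats and actin. Dbn1 encodes drebrin, Lasp1 a LIM and SH3 domain protein and Cttn cortactin, all of which bind actin filaments, and Trim50 encodes a tripartite-motif protein of parietal cell tubulovesicles. Ezrin is the classical ERM protein of parietal cell microvilli, and ezrin and Lasp1 are known as phosphorylation targets when acid secretion is stimulated.

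RNA was measured in tdTomato-labelled parietal cells sorted from mouse stomach by flow cytometry. The 3 control libraries have the genotype Transgenic-Tom and the 3 noggin libraries the genotype Transgenic-Tom-nog. For the noggin animals the design text gives H+/K+-Cre, H+/K+-Nog and Rosa26-tdTom alleles, so that Cre and noggin are both driven by the promoter of the parietal cell H+/K+ ATPase. Noggin binds bone morphogenetic proteins (BMPs) outside the cell and blocks them. The labels do not spell out which allele labels the control cells. The question is what BMP signalling does to these cells. The library titles call the replicates biological. The labels give no ages and do not say whether a replicate was a single animal or a pool, so a p-value covers the spread among libraries, which may in part be technical.

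Values are FPKM, in which fragment numbers are divided by transcript length and library size, and the depth behind them is unknown. Nog, the transgene, was at 0.871 to 1.97 FPKM in controls and at 2281 to 2734 FPKM in noggin libraries. All 16 parietal markers were above 0 in every library. Their sums overlapped, at 34133 to 41218 FPKM in controls and 32059 to 35269 FPKM in noggin libraries. Without Atp4b, the most abundant of them, the sums were 17257 to 20069 FPKM in controls and 10086 to 12249 FPKM in noggin libraries. Most of that remainder was Atp4a. However, 7 chief cell markers summed to 60955 to 112039 FPKM in controls and 131427 to 357960 FPKM in noggin libraries. The most abundant marker RNA in the sorted fraction was thus that of chief cells. Most of it was Pgc and Clps, and Pgc overlapped between groups, at 37488 to 66218 and 42138 to 110445 FPKM. All genes together summed to 595736 to 669124 FPKM in controls and 797168 to 1188186 FPKM in noggin libraries, and the marker sums were not corrected for this. The 5 mucous neck markers summed to 2456 to 3362 FPKM in controls and 10765 to 25864 FPKM in noggin libraries, and 7 mast cell markers to 37.2 to 61.8 and 180 to 276 FPKM. Kit made up most of the mast cell sum in controls, at 32.4 to 43.2 FPKM, and was at 6.59 to 10.3 FPKM in noggin libraries. Of the 6 mast cell markers tested, 5 had a positive log2 fold change and Kit a negative one. Enteroendocrine markers summed to 442 to 2687 FPKM in controls and 1897 to 28650 FPKM in noggin libraries, and surface pit markers to 22615 to 27106 and 24012 to 50879 FPKM. The part of these other cells in the results below was not tested. Noggin replicate 3 stood apart, with 542 of the 10644 tested genes listed at 0 against 19 to 34 in the other libraries. Without it the same number of linkers, 4, was called lower, while the lower calls over all tested genes went from 74 to 280. In such bulk libraries, fewer cells of a type and less RNA per cell cannot be told apart.

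The ERM genes are close relatives, and the ends of their coding sequences show how far a short read can separate them. The last 75 coding bases before the stop codon, which encode part of the actin-binding tail, are given 5′ to 3′ from GENCODE M21 transcripts (GRCm38, the same assembly as mm10), with capitals for bases that differ from Ezr.
Ezr: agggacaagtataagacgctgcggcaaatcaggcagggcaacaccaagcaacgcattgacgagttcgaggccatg
Rdx: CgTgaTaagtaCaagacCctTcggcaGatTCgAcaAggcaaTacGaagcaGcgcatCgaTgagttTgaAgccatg
Msn: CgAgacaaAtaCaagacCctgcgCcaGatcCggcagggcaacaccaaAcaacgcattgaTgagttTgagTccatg
The stretches lie at chr17:6739306-6739380 (minus strand), chr9:52086402-52086476 (plus strand) and chrX:96166557-96166631 (plus strand), each within a single exon. Rdx differs from Ezr at 18 of the 75 bases and Msn at 12, and Rdx and Msn differ from each other at 15. Over all annotated transcripts, 0 words of 50 bases, the read length, were shared between any pair of the 9 genes, Hip1r and Hip1 included.

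The level of the linkers in control libraries of the sorted fraction spanned several orders of magnitude (plot of FPKM by library). Ezr led at 795 ± 38.8 FPKM (mean ± SD, n = 3), above 99.2% of the tested genes. Trim50 followed at 151 ± 6.23 FPKM and Lasp1 at 134 ± 3.27 FPKM, and their ranges did not overlap. Dbn1 at 78.0 ± 5.91 FPKM and Hip1r at 77.6 ± 7.12 FPKM did not differ beyond their spread. Cttn was at 68.7 ± 0.973 FPKM and Rdx at 8.34 ± 1.58 FPKM. Msn at 0.113 ± 0.103 FPKM and Hip1 at 0.00707 ± 0.010 FPKM were near 0, Hip1 being listed at 0 in control replicate 1 and in noggin replicates 2 and 3. In noggin libraries Ezr was still the highest member, but Trim50 at 67.1 ± 2.75 FPKM and Lasp1 at 66.0 ± 9.90 FPKM overlapped, as did Cttn at 45.7 ± 12.9, Dbn1 at 34.8 ± 14.3 and Hip1r at 34.2 ± 1.63 FPKM.

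**Figure D1:**
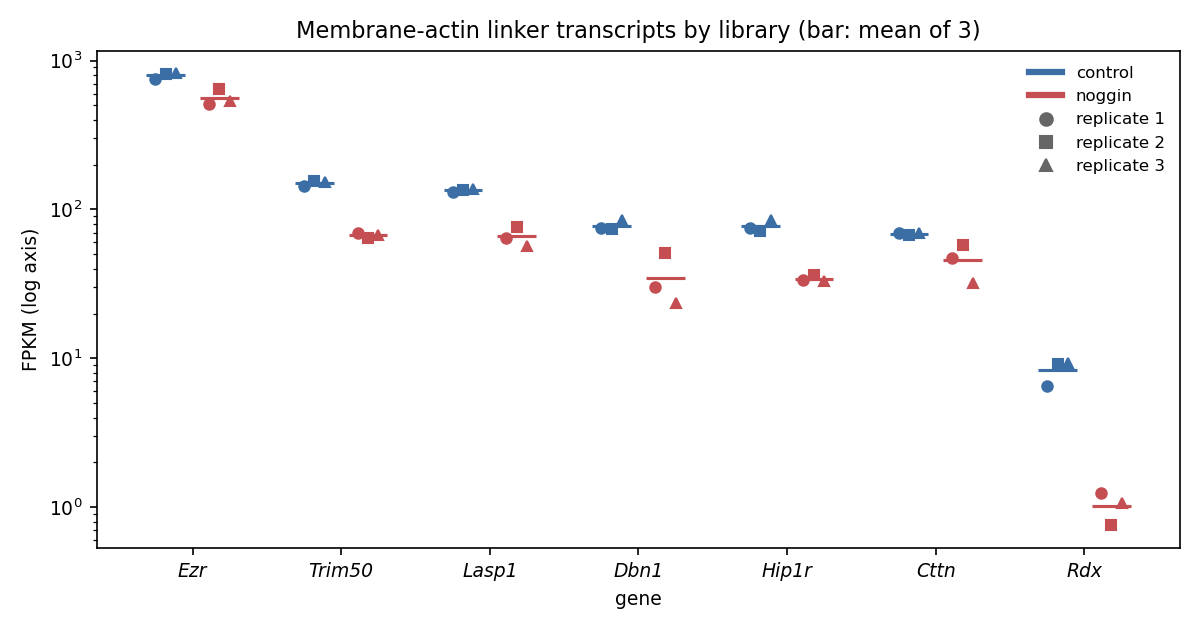
FPKM on a log axis for the 7 linker genes that passed the filter on low values, with 3 control (blue) and 3 noggin (red) libraries each and a bar at the group mean. In each of these genes the 3 noggin libraries lie below the 3 controls, with Ezr at 508 to 643 FPKM against 750 to 820 FPKM and Rdx at 0.757 to 1.25 FPKM against 6.52 to 9.29 FPKM.

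Several linker transcripts were lower in noggin libraries. Of the 9 genes, 7 reached 1 FPKM in at least 3 libraries and were tested, and Msn and Hip1 were not. Among those tested, Rdx, Trim50, Hip1r and Lasp1 fell, Ezr, Dbn1 and Cttn did not pass, and 0 rose. These 4 lower calls stand beside 0.695% of all 10644 tested genes called lower and 2.44% called in either direction. The call is a limma moderated test on log2(FPKM + 1) with a Benjamini-Hochberg adjusted p under 0.05 over all tested genes, and a fold change on that scale understates the change of low genes. In all 7 the noggin libraries lay below every control, as in 18% of tested genes, and 7 of 7 log2 fold changes were negative, against 51.7% of all tested genes that were negative and 48.3% that were positive. The median log2 fold change was -1.15 over the 7 genes and -0.03 over all tested genes. Most of the 16 parietal markers were lower too, with a median of -0.90, 4 called lower and 0 called higher. By sign, 12 of them went down and 4 went up. Every noggin library lay below the controls in 10 markers and above them in 2. Those 2 were Atp4b at 0.22 and Car2 at 1.04 on the log2 scale. The part of the parietal marker change in the linker values was not tested. Leaving out control replicate 1, 2 or 3 left 0 of the 4 calls, and a correction for the trend of fold change with transcript length left Trim50 alone. Lower calls over all tested genes went from 74 to 5, 7 and 5 without those controls, and to 15 with that correction.

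Ezr encodes the main ERM linker, and it lies on chromosome 17 from 6738041 to 6782784 on the minus strand, with 13 exons. It was at 750, 814 and 820 FPKM in control replicates 1, 2 and 3 and at 508, 643 and 536 FPKM in noggin replicates 1, 2 and 3. The groups did not overlap, and the noggin mean was 70.7% of the control mean. Its log2 fold change of -0.51 did not pass the test (SE 0.197, limma adjusted p = 0.155). The sign was the same under every alternative run, but the value ran from -0.29 with the length trend removed to -1.23 with quantile normalization, where it was called lower (adjusted p = 0.0405), as it was at -1.22 after rescaling all libraries to the same total (adjusted p = 0.0438). That rescaling also moved the median of all tested genes to -0.65.

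Rdx, a minor ERM gene in these libraries, lies on chromosome 9 from 52047173 to 52088735 with 14 exons and showed the lowest log2 fold change of the 7 genes. It was at 6.52, 9.22 and 9.29 FPKM in controls and at 1.25, 0.757 and 1.07 FPKM in noggin libraries. Every noggin library was at or below 1.25 FPKM, and the noggin mean was 12.3% of the control mean, a share that rests on values near or under 1 FPKM at an unknown depth, as do the ratio and shares of Rdx below. Rdx fell by 2.20 on the log2 scale (SE 0.306, limma adjusted p = 0.0257), and 0.254% of tested genes had a lower fold change. With a pseudocount of 0.1 the log2 fold change was -2.91 (adjusted p = 0.0379), and with the length trend removed it was -1.79 (adjusted p = 0.0596).

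The balance of ezrin to radixin transcripts was higher in every noggin library than in any control. The log2 ratio of Ezr to Rdx, which does not depend on the scale of a library, was 6.85, 6.47 and 6.46 in controls and 8.67, 9.73 and 8.97 in noggin libraries. The mean was 6.59 ± 0.221 in controls and 9.12 ± 0.548 under noggin (n = 3 each). The difference of 2.53 had a two-sided exact permutation p of 0.1, the smallest that 3 against 3 libraries allow. Ezr made up 98.85 to 99.13% of the summed ERM FPKM in controls and 98.72 to 99.76% in noggin libraries. The share of Rdx was 0.861 to 1.12% in controls and 0.118 to 0.245% in noggin libraries.

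Msn, on chromosome X from 96096042 to 96168552, is the ERM gene typical of leukocytes and endothelium. It was at 0.0832, 0.0282 and 0.227 FPKM in controls and at 0.0382, 0.763 and 5.85 FPKM in noggin libraries. The groups overlapped, since noggin replicate 1 lay within the control range, and noggin replicate 3 carried most of the signal. The log2 ratio of Ezr to Msn averaged 13.3 ± 1.5 for controls against 9.98 ± 3.6 for noggin (n = 3 per group), with overlap and an exact permutation p of 0.3. The leukocyte list summed without Lcp1 was higher in all 3 noggin libraries, replicate 1 included, where Msn was at the control level. Single markers of the list did not all follow. Coro1a in noggin replicate 1, with 0.207 FPKM, stayed inside its control range of 0.0678 to 0.309 FPKM, and so did Cd79a. Noggin replicate 3 had Coro1a listed at 0. Without Lcp1, which was at 55.4 to 63.1 FPKM in controls, the other 16 markers of that list summed to 9.20 to 11.3 FPKM in controls and to 53.0, 75.5 and 438 FPKM in noggin replicates 1, 2 and 3. Fcer1g, an Fc receptor subunit, was highest in noggin replicate 1, at 10.8 FPKM against at most 0.406 FPKM in controls. Ptprc, which encodes the pan-leukocyte antigen CD45, was at 0.00407 to 0.0421 FPKM in controls and at 0.0493, 0.18 and 1.30 FPKM in noggin libraries. The T cell gene Cd3g was listed at 0 in 5 of the 6 libraries. Of 9 endothelial markers, Cdh5 was listed at 0 in all 6 libraries, the sums were 33.7 to 38.3 FPKM in controls and 32.7 to 48.9 FPKM in noggin libraries, and 6 of the 9 were at 0 in noggin replicate 3. In that library Pecam1 was at 5.70 FPKM against at most 0.383 FPKM elsewhere, and Esam was at 0 against 2.80 to 5.38 FPKM. Their part in the Msn values was not tested.

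**Figure D2:**
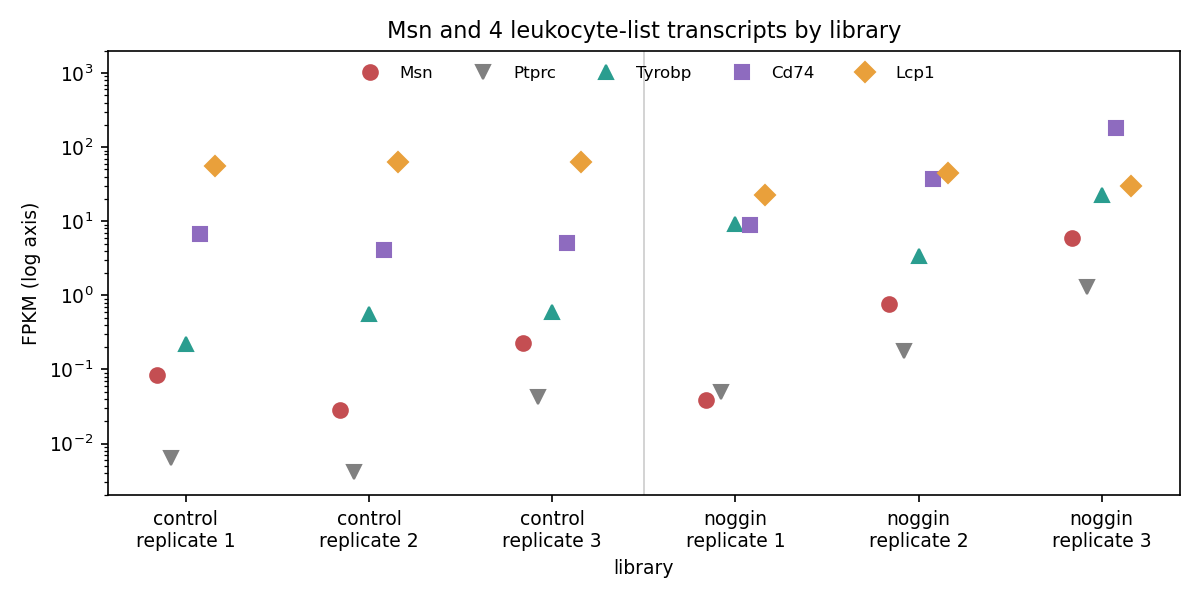
FPKM on a log axis in each of the 6 libraries for Msn and for Ptprc, Tyrobp, Cd74 and Lcp1 of the leukocyte list. Msn, Ptprc and Cd74 are highest in noggin replicate 3, at 5.85, 1.30 and 182 FPKM, while Lcp1 is at 22.6 to 44.3 FPKM in noggin libraries, below the 55.4 to 63.1 FPKM of controls.

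Hip1r, on chromosome 5 from 123973628 to 124005558 with 32 exons, was at 75.6, 71.7 and 85.5 FPKM in controls and at 33.4, 36.1 and 33.2 FPKM in noggin libraries. The noggin libraries stood close together and far from the controls, at 44.1% of the control mean. Hip1r fell by 1.15 on the log2 scale (SE 0.173, limma adjusted p = 0.0294). Its 6735-base transcript is the longest among the 7 tested genes, and with the length trend removed the log2 fold change was -0.63 (adjusted p = 0.0942), which ended the call. Vps37b runs antisense over its end: 11.5% of the 50-base words of Hip1r lie in Vps37b transcripts, and whether the counting used strand is unknown, so reads from that shared stretch cannot be told apart. Vps37b was at 20.3 to 29.8 FPKM in controls and 9.01 to 29.3 FPKM in noggin libraries, and those groups overlapped. The relative Hip1, on the same chromosome from 135406531 to 135545120, was at most 0.0185 FPKM in any library, so of this pair the Hip1r level could be compared.

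Trim50, on chromosome 5 from 135353295 to 135368005, encodes the tubulovesicle-associated member of the group. It was at 144, 155 and 153 FPKM in controls and at 69.8, 64.3 and 67.3 FPKM in noggin libraries. Both groups were tight, and the noggin mean was 44.6% of the control mean. Trim50 fell by 1.15 on the log2 scale (SE 0.157, limma adjusted p = 0.0248). Its transcript of 1629 bases is the shortest of the 7, and with the length trend removed the log2 fold change was -1.48 (SE 0.125, adjusted p = 0.00743), the single linker call under that setting. The call ended in 6 of 15 alternatives: with no filter (adjusted p = 0.0551), without the mean-variance trend (0.0602), with a replicate block (0.0508) and without control replicate 1, 2 or 3 (0.121 to 0.204).

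Lasp1, on chromosome 11 from 97799000 to 97838764, was at 131, 134 and 137 FPKM in controls and at 64.4, 76.6 and 57.0 FPKM in noggin libraries. All noggin libraries were well below the controls, at 49.2% of the control mean. Lasp1 fell by 1.02 on the log2 scale (SE 0.178, limma adjusted p = 0.0401). The call ended in 9 of 15 alternatives, among them a pseudocount of 0.01 (adjusted p = 0.0527), the length trend removed (-0.72, adjusted p = 0.0596), a replicate block (adjusted p = 0.0768) and the omission of any control library or of noggin replicate 1. The log2 ratio of Lasp1 to Ezr averaged -2.57 ± 0.0412 for controls against -3.09 ± 0.129 for noggin (n = 3 per group), with no overlap and again an exact permutation p of 0.1. A predicted gene, Gm4875, shares 1.78% of the 50-base words of Lasp1, so a small part of its reads is uncertain.

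Dbn1 and Cttn encode actin filament binders that varied more among noggin libraries. Dbn1, on chromosome 13 from 55473429 to 55488111, was at 75.1, 74.1 and 84.8 FPKM in controls and at 30.1, 50.8 and 23.4 FPKM in noggin libraries. Cttn, on chromosome 7 from 144435733 to 144471009, was at 69.2, 67.6 and 69.3 FPKM in controls and at 47.2, 57.8 and 32.1 FPKM in noggin libraries. In both genes noggin replicate 2 was nearest to the controls and noggin replicate 3 farthest, and the groups did not overlap. The log2 fold change was -1.21 for Dbn1 (SE 0.286, limma adjusted p = 0.0730) and -0.62 for Cttn (SE 0.238, adjusted p = 0.153). Without noggin replicate 2 both were called lower, at -1.52 (adjusted p = 0.0162) and -0.80 (adjusted p = 0.0476). That omission raised the lower calls over all 10644 tested genes from 74 to 825. Without noggin replicate 3 they were at -0.98 and -0.39 and were not called. Gm29787 shares 2.88% of the 50-base words of Cttn.

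**Figure D3:**
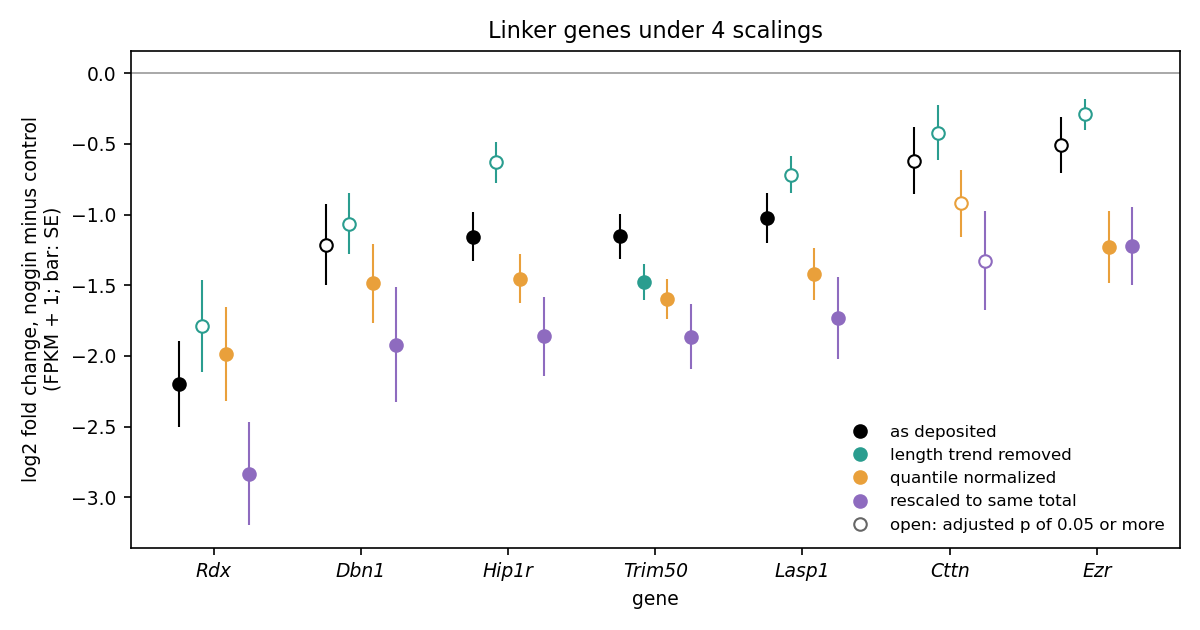
Log2 fold change (noggin minus control, on log2(FPKM + 1)) with its SE for the 7 tested linker genes, as deposited and under 3 other scalings. Filled points have an adjusted p under 0.05. All points are below 0, Trim50 is filled under all 4 scalings, and the 7 genes sit higher with the length trend removed than after rescaling to the same total.

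Transcript length accompanied these fold changes across the whole table. The 4492 tested genes with transcripts of at least 3000 bases had a median log2 fold change of -0.42, and the 6050 shorter ones of 0.27. Ezr, Rdx, Hip1r, Lasp1 and Cttn are among the longer genes, at 3164, 4131, 6735, 3540 and 3099 bases. Dbn1 at 2940 bases and Trim50 are among the shorter. With the length trend removed the median over the 7 genes was -0.72 and that of all genes with a length -0.01. The part of length in the values of the longer linkers was not tested beyond that correction.

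Promoter sequence was read for the members that RefSeq lists, since several fell together. An entry was found for 7 of the 9 genes and none for Trim50 and Cttn. The 250 bases before the start site are printed for 2 genes that fell, 5′ to 3′ on the strand of the gene (RefSeq, GRCm38.p6), with the GC box GGGCGG or its reverse CCGCCC in capitals.
Hip1r: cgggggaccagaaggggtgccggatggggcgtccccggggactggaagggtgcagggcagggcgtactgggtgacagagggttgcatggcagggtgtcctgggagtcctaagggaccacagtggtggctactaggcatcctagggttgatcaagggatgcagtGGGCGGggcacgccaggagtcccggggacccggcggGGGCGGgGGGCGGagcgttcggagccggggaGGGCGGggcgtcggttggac
Rdx: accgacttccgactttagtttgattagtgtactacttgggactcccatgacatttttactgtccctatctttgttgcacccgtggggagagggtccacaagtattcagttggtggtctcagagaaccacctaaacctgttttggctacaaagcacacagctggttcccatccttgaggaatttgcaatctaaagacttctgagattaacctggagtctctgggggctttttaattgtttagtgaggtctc
These lie at chr5:123973378-123973627 and chr9:52046900-52047149, both on the plus strand. The Hip1r window holds 4 GC boxes, the most in the group together with Dbn1, and the Rdx window 0, as does a second Rdx window. Ezr has 2, Msn 3, Lasp1 1 and the 2 windows of Hip1 2 and 1, where 32.7% of 32851 RefSeq promoter windows of this length hold at least 1. The palindrome GGCGCC, bound by SMAD proteins of the BMP pathway, was searched in the same windows of all 7 genes with an entry and was found in 0, against 9.59% of all windows. The site AAGGTCA of estrogen-related receptors and its reverse TGACCTT were also found in 0, against 4.08%, and so was the TATA box TATAAA or its reverse TTTATA, against 12.4%. A match describes letters and is not a binding site.

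Transcripts of the proton pump were read in the same libraries for comparison. Atp4a, the catalytic subunit, was at 13662, 13385 and 16218 FPKM in controls and at 5433, 7619 and 5773 FPKM in noggin libraries, 43.5% of the control mean (log2 fold change -1.21, SE 0.409, adjusted p = 0.124). Of the tested linkers only Rdx lay below Atp4a, at 12.3%, on noggin values of 0.757 to 1.25 FPKM. The others lay close to Atp4a or above it, at 44.1% for Hip1r, 44.6% for Trim50 and Dbn1, 49.2% for Lasp1, 66.5% for Cttn and 70.7% for Ezr. Atp4b, the other subunit, was at 116% of the control mean, with a log2 fold change of 0.22 (adjusted p = 0.814) that turned negative under 3 of the scalings.

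The genes that work around the linkers were taken from 5 lists, and their calls stand beside 1.75% of all tested genes called higher and 0.695% called lower. In the list of ERM scaffolds, membrane anchors and kinases, 16 of 20 genes were tested and 0 passed in either direction, with a median log2 fold change of -0.36. Slc9a3r1, which encodes the ezrin-binding scaffold NHERF1, was picked with its values in view, at 130 to 133 FPKM in controls and 136 to 150 FPKM in noggin libraries (log2 fold change 0.10, limma adjusted p = 0.700), a sign that turned negative under the other 3 scalings. Pip5k1c, a lipid kinase that makes the phosphoinositide ERM proteins bind, was at -0.78 (adjusted p = 0.119), and Nf2, the ERM relative merlin, at -0.93 (adjusted p = 0.155). Ppp1cb, a phosphatase subunit, was at -0.70 (adjusted p = 0.125). Rescaling to the same total gave 3 lower calls in this list and the omission of noggin replicate 2 gave 2. Over all 10644 tested genes these runs gave 666 and 825 lower calls.

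As deposited, genes of actin and its turnover gave higher calls and no lower ones. In the list of actin, filament turnover and bundling genes, 27 of 28 were tested, 2 rose, 0 fell and 25 did not pass, and the median log2 fold change was 0.21. Tmsb10, a thymosin that sequesters actin monomers, was at 112, 96.9 and 68.1 FPKM in controls and at 845, 258 and 414 FPKM in noggin libraries, and rose by 2.30 (SE 0.419, limma adjusted p = 0.0429). The Tmsb10 call ended in 10 of 15 alternatives. Cfl1, the filament-severing cofilin, was at 364 to 431 FPKM in controls and 715 to 957 FPKM in noggin libraries, and rose by 1.02 (adjusted p = 0.0497), a call that ended in 13 of 15 alternatives, with 0.31 after rescaling (adjusted p = 0.297) and 0.29 with quantile normalization (adjusted p = 0.293). Pfn1, a profilin that delivers actin monomers, was at 1.02 (adjusted p = 0.0873), and Capzb, a capping protein subunit, at 0.61 (adjusted p = 0.101), which turned to -0.10 after rescaling. Rescaling and quantile normalization each gave 1 higher and 1 lower call in this list. Over all tested genes rescaling gave 115 higher and 666 lower, and quantile normalization 243 higher and 231 lower. Leaving out any 1 library other than noggin replicate 2, or removing the length trend, left 0 higher calls in this list. Without noggin replicate 2 there were 5 higher and 3 lower, beside 1187 higher and 825 lower over all 10644 tested genes.

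Cortactin works with the Arp2/3 complex, which nucleates branched actin. In that list 21 of 26 genes were tested and 0 passed, with a median of 0.00. The complex subunits Arpc1b and Arpc3 had log2 fold changes of 0.87 (adjusted p = 0.0764) and 0.87 (adjusted p = 0.122). Nckap1 of the WAVE regulatory complex was at -1.45 (adjusted p = 0.116), and Ctnnd1, the cadherin partner p120 catenin, at -1.13 (adjusted p = 0.111). Arpc3 has a transcript of 899 bases and Nckap1 of 4533 bases.

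Among drebrin relatives and LIM actin proteins, 13 of 14 genes were tested, 1 rose and 0 fell, with a median of -0.29. Fhl2, a LIM-only protein, was at 18.8, 16.5 and 11.7 FPKM in controls and at 56.5, 47.9 and 66.7 FPKM in noggin libraries, and rose by 1.81 (SE 0.244, limma adjusted p = 0.0245). The call ended with the length trend removed (adjusted p = 0.0519), with no filter on low values, and without control replicate 1, 2 or 3 or noggin replicate 1. Lima1, Palld and Pdlim5, which encode actin crosslinkers and a LIM scaffold, had log2 fold changes of -0.71 (adjusted p = 0.0925), -0.93 (adjusted p = 0.0991) and -1.10 (adjusted p = 0.109).

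Clathrin-coat genes, partners of Hip1r, gave 0 calls among 23 of 26 genes tested, with a median of -0.36. The clathrin heavy chain Cltc was at -1.03 (adjusted p = 0.107). The light chains Clta and Cltb were at 0.86 (adjusted p = 0.119) and 0.59 (adjusted p = 0.127), and Cltb turned to -0.12 after rescaling. Ap2s1, the small subunit of the AP-2 adaptor, was at 1.10 (adjusted p = 0.0810). The heavy chain has a transcript of 6519 bases and Ap2s1 of 836 bases. A gene that did not pass is not shown to be unchanged.

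**Figure D4:**
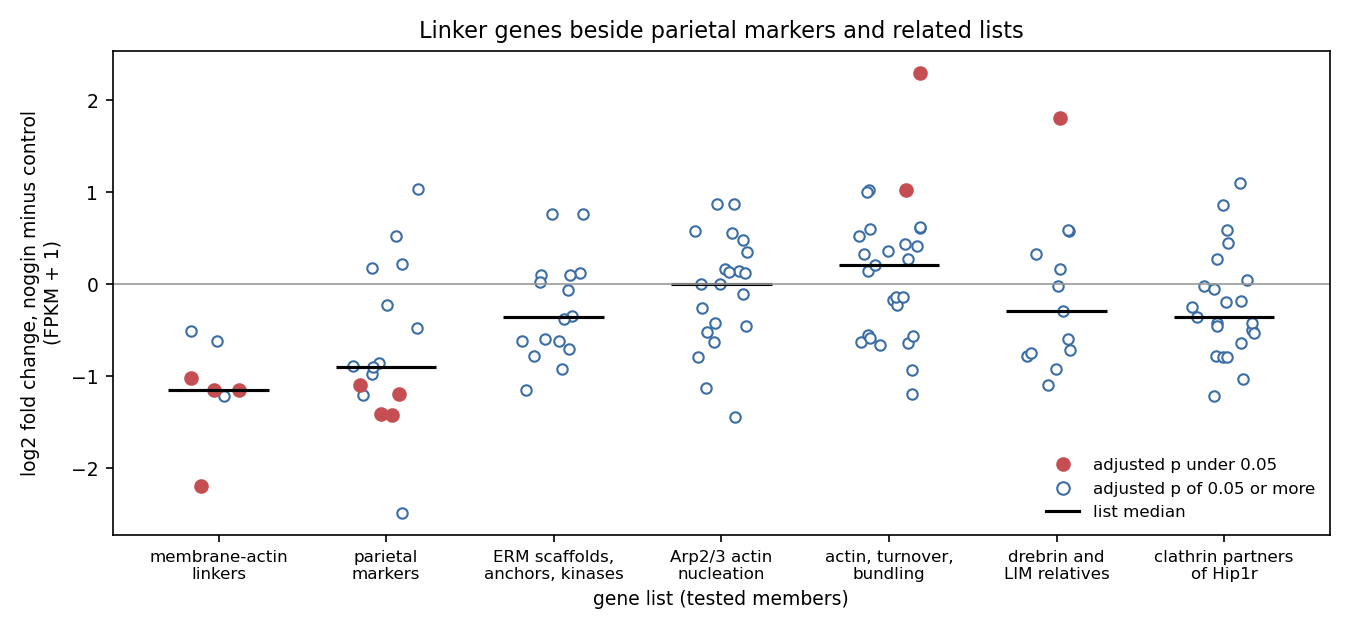
Log2 fold change (noggin minus control, on log2(FPKM + 1)) of each tested gene in the linker group, the parietal markers and 5 related lists, with a bar at the list median and filled points for an adjusted p under 0.05. The linker median is -1.15, that of the parietal markers -0.90, and those of the other lists lie between -0.36 and 0.21.

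The genes whose pattern over the 6 libraries lay closest to a linker were found by the root mean square difference of centred log2(FPKM + 1) values. Closest to Hip1r was Slc4a2, the basolateral chloride and bicarbonate exchanger of parietal cells, at 0.0522. Sos2 and Atp8a2 followed at 0.0712 and 0.0833. The median difference from Hip1r over the tested genes, with predicted genes left out, was 0.707. Slc4a2 was at 518 to 625 FPKM in controls and 240 to 283 FPKM in noggin libraries, with a log2 fold change of -1.09, which its choice by likeness to Hip1r fixes. Closest to Trim50 were Sos2, Sun1 and Homer2 at 0.0862, 0.0919 and 0.0962, and closest to Ezr were Mgrn1, Rbm26 and Mia3 at 0.0396, 0.0453 and 0.0553, and these 6 genes were not called. Their log2 fold changes were -1.11, -1.16 and -1.13, and -0.46, -0.53 and -0.43.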

How the data were processed

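The authors deposited gene-level FPKM for 6 libraries. Tools and build are mm10, bcl2fastq and FastQC 0.10.0, per the submitters' processing notes. The aligner, quantifier, annotation and use of strand were not given in the sources used here. A SMART-Seq low-input kit and 50-base single-end sequencing were used, per the labels' protocols. Depth is unknown, so no interval or detection limit that needs reads is given.

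Titles gave each library's group and number. Values were analysed as log2(FPKM + 1) in the 10644 genes that reached 1 FPKM in 3 or more libraries, with limma 3.58.1 in R 4.3.3, a mean-variance trend and the group as the only term, and p-values were adjusted over all tested genes. For ratios, a two-sided exact permutation test was used. The fit was also tried on simulated data, in 5 runs with 200 changed genes each. Gene means and SDs came from these libraries and the noise was independent and normal. No library was made to stand apart and no length trend was added. In that setting it recovered 3.6% of added changes of 1 on the log2 scale and 47.2% of those of 2, and 4.51% of its calls were false.

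The members and lists were chosen with earlier results of these data known. All 9 members are named. In each related list up to 4 tested genes are named, those called first and then by unadjusted p, and for Ezr, Hip1r and Trim50 the 3 genes closest in pattern, without predicted genes. One gene that this rule names is not reported here. Nog, Atp4a and Atp4b are also named; Vps37b, Slc9a3r1, Lcp1 and the marker genes were picked with their values in view.

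Symbols were matched to GENCODE M21 (20911 by symbol, 1915 by synonym, 458 unmatched). Length is the median over transcripts with a RefSeq match, otherwise the longest transcript, and 99.0% of tested genes had one. For the length correction, a lowess curve over log length was fitted in every library to the difference from the 6-library mean and subtracted. Other alternatives were pseudocounts of 0.1 and 0.01, no filter or one of 5 FPKM, rescaling, quantile normalization, no mean-variance trend, a replicate term and each library left out. A ratio of Hip1r to Hip1 was not computed, since Hip1 is listed at 0 in 3 libraries.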

Additional observations from a re-analysis of the deposited data

How the results depend on the processing

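The sign of all 7 tested linker genes was negative under each of the 15 alternatives. The number called lower went from 4 to 0 with no filter on low values, to 1 with the length trend removed, to 1 without the mean-variance trend, and ran from 0 to 6 when a library was left out. None was called higher under any alternative for those 7 genes. Their median log2 fold change of -1.15 went to -1.86 after rescaling to the same total, -1.45 with quantile normalization and -0.72 with the length trend removed. Over all tested genes, 186 higher and 74 lower went to 85 and 26 with a pseudocount of 0.1, 72 and 21 with 0.01, 8 and 4 with no filter, 115 and 666 after rescaling, 54 and 15 with the length trend removed and 66 and 17 without the mean-variance trend. Quantile normalization gave 243 higher and 231 lower. Leaving out a library gave 4 to 1187 higher and 5 to 825 lower.

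Deviations from the group mean correlated weakly between libraries with the same replicate number (0.105, -0.141 and 0.005 across genes). Other pairs gave -0.129 to 0.120. With means of 3 libraries this cannot show whether the numbers pair libraries, and the labels do not say. With a replicate block, 128 genes were higher and 32 lower, and 1 linker gene, Rdx, was called lower (adjusted p = 0.0484). The 3 ratios kept their direction when a library was left out, with differences of -5.14 to -1.55 for Ezr to Msn, 2.22 to 2.75 for Ezr to Rdx and -0.58 to -0.46 for Lasp1 to Ezr, and also with 1 FPKM added (-1.57, 1.69 and -0.52). The ratio of Hip1r to Hip1 was not run. The log2 fold change of Atp4b turned to -0.50 after rescaling, -0.56 with quantile normalization and -0.23 with the length trend removed, that of Slc9a3r1 to -0.61, -0.38 and -0.077 in the same order, and rescaling turned Capzb to -0.10 and Cltb to -0.12. The cause of these changes was not tested. With depth unknown, values under 1 FPKM such as those of Hip1, of Msn outside noggin replicate 3 and of Rdx in noggin replicate 2 cannot be told from the limit of detection.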

Other observations

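Lcp1, which encodes the actin bundler L-plastin and stands in the leukocyte list, was noticed after its values were seen. It was at 55.4, 62.9 and 63.1 FPKM in controls, where Ptprc was at most 0.0421 FPKM, and at 22.6, 44.3 and 29.8 FPKM in noggin libraries. It went the opposite way to the other 10 tested genes of that list, at -0.94 on the log2 scale (limma adjusted p = 0.0952, not called).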
